A study of Homo sapiens with 17 samples.

Results

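The genes described here are neuropeptide Y (NPY) and 8 genes known for growing nerve processes and for neuroendocrine cells: GAP43, STMN2, NEFL, NEFM, TUBB3, CHGA, UCHL1 and NTRK2. They were taken by name from a deposited table of 20218 genes, in which 8 of the 9 had a row; NEFL was not analysed here. NPY, GAP43 and STMN2 were picked because their levels were higher in GFP+mCherry+ cells, so their differences that involve the mCherry+ populations are given as a description, with no test. The other 5 genes with a row were tested. All 8 passed the filter on low values, at least 1 FPKM in at least 2 libraries, as did 14845 genes of the table. FPKM is a level in sequenced fragments, scaled by gene length and by library size.

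The cells were H9 human embryonic stem cells, an established line, that carried a GFP reporter for SHOX2 and an mCherry reporter whose gene the labels do not name. They were differentiated toward heart cells and sorted at day 25 or day 40 into GFP+mCherry+, GFP-mCherry+ and GFP-mCherry- cells, with 3 RNA-seq libraries in each of the 6 groups except GFP+mCherry+ at day 40, which had 2. The protocol gives a first step with CHIR99021, BMP4 and Activin A, then XAV939 for cardiomyocytes, or cucurbitacin, retinoic acid, SU5402 and XAV939 followed by Tyrphostin AG 490 and chidamide for sinoatrial node cells, without naming the arm of each sorted population. Nothing in the labels ties the libraries to separate cultures, so p-values reflect only how far these libraries vary, possibly for technical reasons, and all of them share 1 parental line. Libraries are called by the number that opens their title.

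NPY is a peptide that sympathetic neurons store in dense-core granules and release together with noradrenaline, and in the heart it acts on receptors of muscle and vessel cells. GAP43 is a membrane-bound protein of growth cones, STMN2 regulates the microtubules of growing axons, NEFM is a neurofilament subunit and TUBB3 a neuronal beta tubulin. CHGA is a core protein of secretory granules, UCHL1 is a ubiquitin hydrolase abundant in neurons, and NTRK2 is the receptor of brain-derived neurotrophic factor.

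The promoters of the 4 members below are shown because each had 1 start in the RefSeq promoter table and together they cover the peptide, the granule protein, the growth-cone protein and the hydrolase. Each line is the 250 bases before the start, plus strand, build GRCh38.p14, 5′ to 3′. Capitals mark matches, on either strand, to CANNTG (an E-box), TGACGTCA (a cyclic AMP response element), TATAA and GGGCGG (a GC box).
NPY, chr7:24283940-24284189: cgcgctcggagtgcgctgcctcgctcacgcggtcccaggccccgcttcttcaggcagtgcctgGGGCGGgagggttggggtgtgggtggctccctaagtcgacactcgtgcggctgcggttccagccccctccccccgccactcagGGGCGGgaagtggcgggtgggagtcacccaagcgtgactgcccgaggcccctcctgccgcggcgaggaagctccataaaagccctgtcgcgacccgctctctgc
GAP43, chr3:115623260-115623509: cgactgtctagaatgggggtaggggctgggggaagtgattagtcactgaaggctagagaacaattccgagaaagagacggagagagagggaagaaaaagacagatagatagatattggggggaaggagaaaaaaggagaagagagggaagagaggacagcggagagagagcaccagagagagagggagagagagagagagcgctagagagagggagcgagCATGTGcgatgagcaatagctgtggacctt
UCHL1, chr4:41256678-41256927: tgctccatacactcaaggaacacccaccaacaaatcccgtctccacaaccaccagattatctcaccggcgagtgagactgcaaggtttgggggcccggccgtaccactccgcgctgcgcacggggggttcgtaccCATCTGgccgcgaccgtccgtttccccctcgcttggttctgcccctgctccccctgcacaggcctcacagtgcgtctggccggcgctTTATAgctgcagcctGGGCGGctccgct
CHGA, chr14:92922900-92923149: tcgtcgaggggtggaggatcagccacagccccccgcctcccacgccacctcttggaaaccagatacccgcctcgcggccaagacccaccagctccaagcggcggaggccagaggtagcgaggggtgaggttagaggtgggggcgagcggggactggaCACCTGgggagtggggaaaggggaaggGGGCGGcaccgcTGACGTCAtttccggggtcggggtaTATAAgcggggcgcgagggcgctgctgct

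The NPY window was 71.6% G or C, with 24 CG dinucleotides and 2 GGGCGG matches, against medians of 58% and 11 over 35114 promoters of the same length. The GAP43 window was unlike it, with 51.6% G or C and 7 CG dinucleotides, and 78.4% of its bases were A or G. UCHL1 (64.4%, 20 CG) and CHGA (68.8%, 21 CG) lay nearer to NPY. Over all these promoters GGGCGG was found in 42.6%, CANNTG in 61.8%, TATAA in 18.9% and TGACGTCA in 1.65%. Of the 4 windows shown, TGACGTCA was found in that of CHGA alone. A match describes letters only. Of the 8 members, 6 matched the RefSeq table by symbol, TUBB3 with 2 starts and NTRK2 with 4.

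As a check of the sort, SHOX2 averaged 91.8 ± 45.1 FPKM (SD, n = 3) in GFP+mCherry+ cells at day 25 and 74.3 ± 22.4 (n = 2) at day 40. It stayed under 2.5 FPKM in every other library. Summed FPKM over 9 cardiomyocyte markers ran from 17550 to 29390 in GFP-mCherry+ libraries, 5907 to 14690 in GFP+mCherry+ libraries and 642.6 to 2931 in GFP-mCherry- libraries. The labels call every library sinoatrial-node-like cells, but the GFP-mCherry- libraries had SHOX2 at most 1.32 FPKM and the lowest cardiomyocyte sums. Fewer genes were detected in libraries 13 (16493) and 14 (16598) than in any other (at least 17108). The read depth is unknown.

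NPY reached the highest level of the 8 members and ranged from 4.32 to 360 FPKM. In GFP+mCherry+ cells it was 360, 14.6 and 35.2 FPKM at day 25 (libraries 1, 4 and 7) and 339 and 269 FPKM at day 40. In GFP-mCherry+ cells it was 6.26, 4.32 and 28.6 FPKM at day 25 and 6.93, 34.5 and 10.3 FPKM at day 40. GFP-mCherry- cells held 11.4, 9.20 and 19.4 FPKM at day 25 and 46.9, 99.4 and 61.4 FPKM at day 40. At day 40 both GFP+mCherry+ libraries stood above every other library of that day. At day 25 libraries 1 and 7 did, library 7 by little (35.2 against at most 28.6 FPKM), and library 4 lay within the range of the other populations.

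Between the mCherry+ populations the NPY difference was 2.49 ± 0.88 (SE) on the log2(FPKM + 1) scale at day 25 and 4.36 ± 0.98 at day 40. The day 25 value was 1.19 without library 1 and 3.45 without library 4. Library 1 also differed from libraries 4 and 7 in other respects. Its cardiomyocyte marker sum was 5907 FPKM, against 14690 and 12830, and its sum of 4 endothelial markers was 224 FPKM, against 37.2 and 66.2. The 2 day 40 libraries had endothelial sums of 232 and 209 FPKM. Of the 4, KDR reached 221 FPKM and VWF stayed under 1 FPKM in every library. SHOX2 went the other way, 49.0 FPKM in library 1 against 139 and 87.4. Whether other cell types had a part in the NPY level was not tested, and in bulk RNA fewer cells of a type cannot be told apart from less RNA per cell.

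NPY was tested only between the days of the GFP-mCherry- cells, because it was picked for higher levels in GFP+mCherry+ cells. Whether levels in the GFP-mCherry- cells were also used in that choice is not known. There it averaged 13.3 ± 5.35 FPKM at day 25 and 69.2 ± 27.1 at day 40 (n = 3 each), and no library overlapped, as was so for 9.44% of all genes in that direction. The log2 difference was 2.29 ± 0.88, adjusted p = 0.180 by limma with Benjamini-Hochberg adjustment over all genes, and so it did not pass. With only these 2 groups in the fit the adjusted p was 0.0149.

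**Figure D1:**
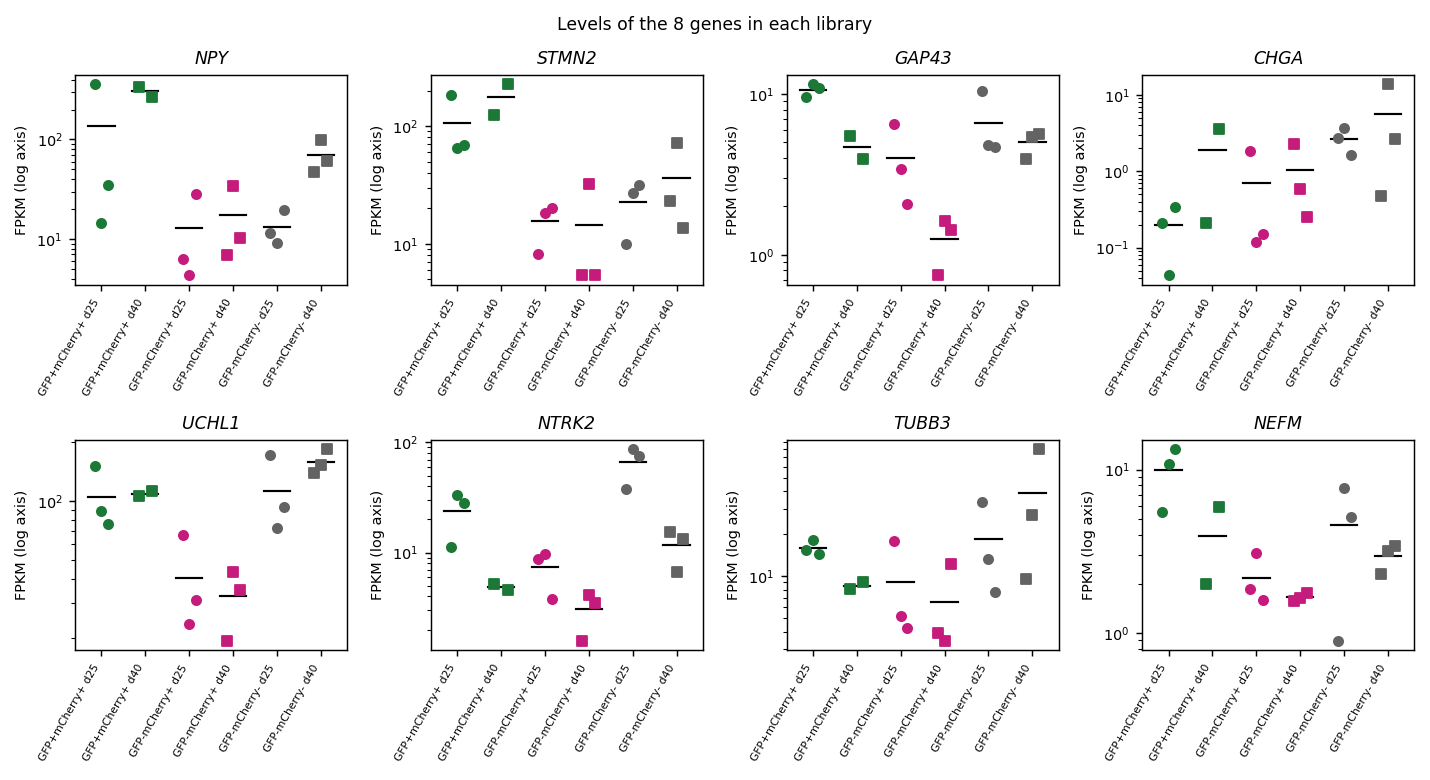
FPKM of the 8 genes in each library on a log axis, by sorted population and day (d25 circles, d40 squares), with a black line at the group mean. NPY and STMN2 are highest in GFP+mCherry+ cells, with NPY spread from 14.6 to 360 FPKM at day 25, while UCHL1 is about as high in GFP-mCherry- cells.

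STMN2 showed the difference in every library. It was 184, 64.6 and 69.5 FPKM in GFP+mCherry+ cells at day 25 and 123 and 227 FPKM at day 40. GFP-mCherry+ cells held 8.15, 18.3 and 20.3 FPKM at day 25 and 5.42, 32.5 and 5.48 FPKM at day 40. In GFP-mCherry- cells it was 9.94, 27.3 and 31.4 FPKM, then 23.2, 72.4 and 13.8 FPKM. At each day the GFP+mCherry+ libraries lay above all others of that day. The log2 differences from GFP-mCherry+ cells were 2.61 ± 0.68 at day 25 and 3.91 ± 0.76 at day 40, the latter 4.70 without library 14.

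GAP43 was low throughout, at most 11.5 FPKM. It was 9.54, 11.5 and 10.8 FPKM in GFP+mCherry+ cells at day 25 and 5.49 and 3.93 FPKM at day 40. In GFP-mCherry+ cells it was 6.50, 3.42 and 2.07 FPKM, then 0.745, 1.62 and 1.42 FPKM. GFP-mCherry- cells gave 10.4, 4.80 and 4.67 FPKM, then 3.91, 5.41 and 5.67 FPKM. GFP+mCherry+ libraries were above the GFP-mCherry+ libraries of their day but overlapped the GFP-mCherry- libraries. The log2 difference between the mCherry+ populations was 1.31 ± 0.32 at day 25 and 1.34 ± 0.36 at day 40. Against GFP-mCherry- cells it was 0.69 ± 0.32 and -0.07 ± 0.36.

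Among the tested members, NEFM, UCHL1 and NTRK2 were higher in GFP+mCherry+ than in GFP-mCherry+ cells at day 25. That is 3 of 5 members, where 20.4% of all tested genes were called (12.0% as higher). UCHL1 was 151, 89.0 and 75.8 FPKM in GFP+mCherry+ cells and 66.9, 23.5 and 31.0 FPKM in GFP-mCherry+ cells. NEFM was 5.51, 10.8 and 13.3 FPKM against 1.85, 3.07 and 1.58 FPKM. For NTRK2 the values were 11.2, 33.1 and 28.0 FPKM against 8.75, 9.64 and 3.82 FPKM. In all 3 genes every GFP+mCherry+ library exceeded every GFP-mCherry+ library, as in 23.0% of all tested genes, although library 1 came close to the GFP-mCherry+ range for NTRK2.

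By limma the log2 difference was 1.73 ± 0.45 for NEFM (adjusted p = 0.0147), 1.43 ± 0.39 for UCHL1 (adjusted p = 0.0166) and 1.53 ± 0.43 for NTRK2 (adjusted p = 0.0214). None of the 3 calls held when library 8 was left out, where the adjusted p was 0.0567, 0.0637 and 0.108. NEFM was also lost without library 7 (0.0635), UCHL1 without library 1 (0.0755) or 5 (0.0832), and NTRK2 without library 4 (0.0893) or 7 (0.0800). TUBB3 (0.99 ± 0.66) and CHGA (-0.37 ± 0.67) did not pass.

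Markers of other cell types moved between the same 2 populations at day 25. Of the tested genes of each list, 5 of 8 fibroblast, 5 of 7 epithelial, 3 of 7 epicardial, 2 of 3 endothelial, 2 of 6 smooth muscle and 2 of 4 melanocyte markers were higher in GFP+mCherry+ cells, 1 melanocyte marker was lower, and 6 of 9 cardiomyocyte markers were lower. The fibroblast sum was 8505 to 14120 FPKM in GFP+mCherry+ cells against 2907 to 4027 FPKM, and the epithelial sum 1562 to 1737 FPKM against 770.4 to 1060 FPKM. For epicardial markers the sums were 165 to 315 and 50.3 to 140.2 FPKM, for endothelial markers 37.2 to 224.1 and 15.7 to 38.4 FPKM. The endothelial sum of 224.1 FPKM was mostly KDR. Their part in the NEFM, UCHL1 and NTRK2 differences was not tested.

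At day 40 UCHL1 alone of the 5 passed, against 25.5% of all tested genes (16.2% as higher). It was 106 and 112 FPKM in GFP+mCherry+ cells and 19.3, 43.1 and 35.1 FPKM in GFP-mCherry+ cells, a log2 difference of 1.78 ± 0.43 by limma (adjusted p = 0.00715). Without library 13 the adjusted p was 0.0721. Over all genes the 3783 calls of this comparison became 1241 without library 13 and 1304 with only the compared groups, and the list counts given below for day 40 come from the same fit as the 3783. At day 40 5 of 8 fibroblast, 2 of 7 epithelial, 2 of 7 epicardial, 2 of 3 endothelial and 2 of 4 melanocyte markers were again higher. Of 6 smooth muscle markers 2 were higher and 1 lower, and 6 of 9 cardiomyocyte markers were again lower. The part of these cell types was not tested. NEFM (0.77 ± 0.51) and NTRK2 (0.59 ± 0.49) did not pass, although their libraries did not overlap, as in 26.5% of all genes in that direction. The change of this difference from day 25 to day 40 passed for 0 of 5 members by limma, with 0 at an unadjusted p under 0.05, where 0.0135% of all genes were called.

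UCHL1 and NTRK2 had their highest group means in GFP-mCherry- cells, at day 40 and day 25. So did TUBB3 (38.7 FPKM) and CHGA (5.65 FPKM), both at day 40. In GFP-mCherry+ minus GFP-mCherry- the log2 difference was negative for all 8 members at both days, the 3 picked ones included. Of all genes it was negative for 58.2% at day 25 and 55.6% at day 40. UCHL1 held 171, 72.6 and 93.3 FPKM in GFP-mCherry- cells at day 25 and 139, 153 and 183 FPKM at day 40. NTRK2 held 37.9, 86.5 and 74.6 FPKM, then 15.3, 6.67 and 13.3 FPKM. Every one of these libraries was above every GFP-mCherry+ library of its day, which in that direction held for 29.3% of all genes at day 25 and 22.6% at day 40. Markers of 4 other cell types were also lower in GFP-mCherry+ than in GFP-mCherry- cells. By limma these were 7 of 7 epithelial and 6 of 7 epicardial markers at both days, 6 of 8 fibroblast markers at day 25 and 7 of 8 at day 40, and 2 of 3 and then 3 of 3 endothelial markers. The sum of 7 epithelial markers was 1742 to 2902 FPKM in GFP-mCherry- cells and 629.9 to 1060 FPKM in GFP-mCherry+ cells over both days, and that of 7 epicardial markers 268 to 581.3 and 50.3 to 140.2 FPKM. The fibroblast sum was 7086 to 8682 against 2907 to 4027 FPKM at day 25 and 11190 to 23000 against 1969 to 7306 FPKM at day 40. Their part in the UCHL1 and NTRK2 levels was not tested.

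In GFP-mCherry+ minus GFP-mCherry- at day 25, 2 of 5 tested members were called, both lower (28.5% of all genes called, 16.4% lower). These were UCHL1 (-1.50 ± 0.39, adjusted p = 0.00799 by limma) and NTRK2 (-3.00 ± 0.43, adjusted p = 0.000101 by limma). At day 40, 3 of 5 were called lower (31.9% of all genes called, 18.5% lower). By limma UCHL1 differed by -2.31 ± 0.39 (adjusted p = 0.000329) and NTRK2 by -1.64 ± 0.43 (adjusted p = 0.00906).

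The third was TUBB3, at -2.11 ± 0.66 (adjusted p = 0.0219 by limma). GFP-mCherry- cells at day 40 held 9.45, 27.0 and 79.6 FPKM of TUBB3 and GFP-mCherry+ cells 3.93, 3.47 and 12.2 FPKM, so the libraries overlapped. The call did not hold with only the compared groups (0.0629), without libraries 13 and 14 (0.0865) or without library 11, 14, 15 or 18 (0.0557 to 0.123). TUBB3 had 2 rows in the table, at overlapping loci, the second at most 0.336 FPKM, and reads may have been split between them. CHGA was under 4 FPKM in every library but 1, library 15 with 13.9 FPKM, and was called in no comparison, though with only the compared groups in the fit it was lower in GFP+mCherry+ than in GFP-mCherry- cells at day 25 (adjusted p = 0.00563 by limma).

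Set against GFP-mCherry- cells directly, GFP+mCherry+ cells had 1 of 5 tested members called at day 25, NTRK2, which was lower (-1.47 ± 0.43, adjusted p = 0.0393 by limma, with 11.1% of all genes called, 5.27% as lower). That call was lost with a pseudocount of 0.1 (0.0596), with no filter (0.0721), with only the compared groups (0.0553) and without library 1, 6, 7 or 9 (0.0635 to 0.153). At day 40, 0 of 5 passed by limma, with 2 at an unadjusted p under 0.05 and 11.8% of all genes called. UCHL1 differed by -0.06 ± 0.39 at day 25 and -0.53 ± 0.43 at day 40.

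**Figure D2:**
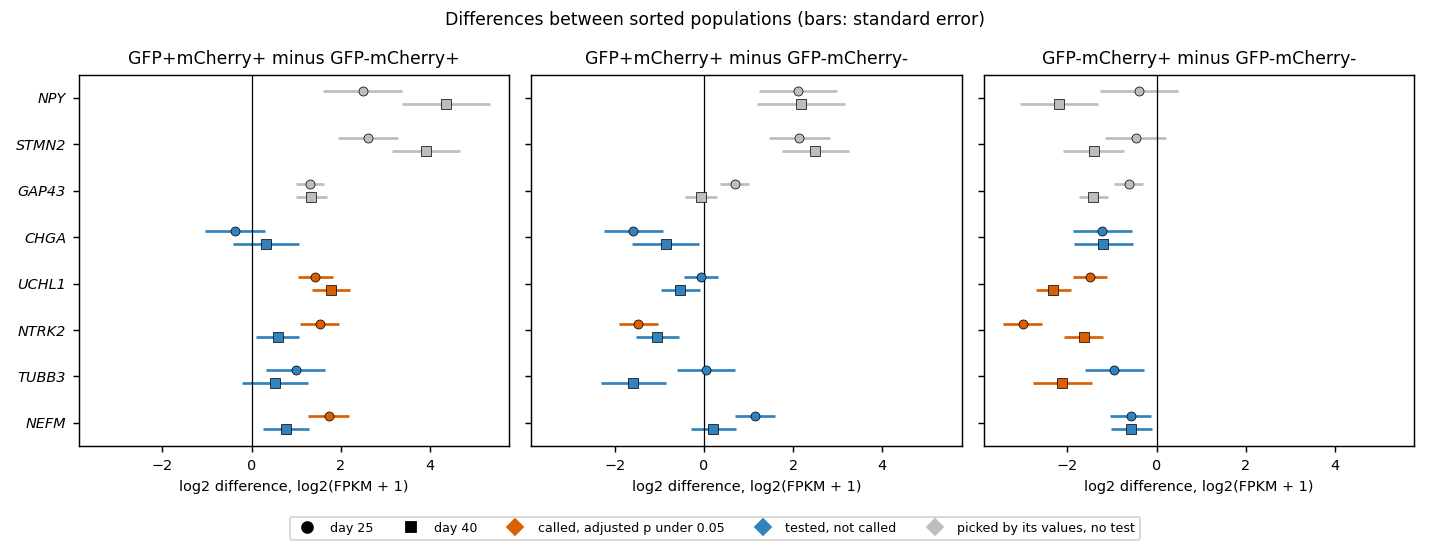
Log2 differences with standard errors for the 8 genes in 3 pairs of sorted populations at day 25 (circles) and day 40 (squares). Orange marks a call, blue a tested gene without a call and grey a gene picked by its values. UCHL1 and NTRK2 are orange at both days in the GFP-mCherry+ minus GFP-mCherry- panel, and TUBB3 at day 40.

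From day 25 to day 40, NTRK2 was the tested member with a call. In GFP-mCherry- cells the log2 change was -2.39 ± 0.43 (adjusted p = 0.00714 by limma), 1 of 8 members tested there, with 3.87% of all genes called, 2.32% as lower. No library overlapped (16.9% of all genes in that direction), and the call held with each of the 6 libraries left out. In GFP+mCherry+ cells NTRK2 changed by -1.96 ± 0.49 (adjusted p = 0.0317 by limma), 1 of 5 with 4.06% of all genes called, 1.88% as lower. It was lost with no filter (0.0607), with only the compared groups (0.0924), without libraries 13 and 14 (0.213) and without library 4, 7, 10 or 13 (0.0660 to 0.234). In GFP-mCherry+ cells 0 of 5 passed by limma, with 1 at an unadjusted p under 0.05 and 4.55% of all genes called; the NTRK2 change was -1.02 ± 0.43. Lower values at day 40 were also seen for GAP43, described without a test, at -1.04 ± 0.36 in GFP+mCherry+ and -1.07 ± 0.32 in GFP-mCherry+ cells, and for NEFM in GFP+mCherry+ cells, at -1.19 ± 0.51, which did not pass (adjusted p = 0.202 by limma).

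Ordered by mean FPKM over the 6 groups, most neighbours overlapped. NPY ran from GFP+mCherry+ at day 40 (303.9) and day 25 (136.6) to GFP-mCherry- at day 40 (69.2), and the next group, GFP-mCherry+ at day 40 (17.3), did not overlap with it. NTRK2 led in GFP-mCherry- cells at day 25 (66.3), clear of GFP+mCherry+ at day 25 (24.1). UCHL1 dropped clearly between GFP+mCherry+ (105.2) and GFP-mCherry+ (40.5) at day 25, and GAP43 between GFP-mCherry+ at day 25 (4.00) and day 40 (1.26). The last 2 groups of NTRK2, GFP+mCherry+ (4.89) and GFP-mCherry+ (3.08) at day 40, were also separate. For STMN2, NEFM, TUBB3 and CHGA no neighbouring groups were separate.

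The other genes of these pathways are read against the shares of all genes called, which in GFP+mCherry+ minus GFP-mCherry+ were 20.4% (12.0% higher) at day 25 and 25.5% (16.2% higher) at day 40. Of 21 tested genes of axon growth and the neuronal cytoskeleton, 3 were higher in GFP+mCherry+ than in GFP-mCherry+ cells at day 25 and 0 lower (median log2 difference 0.25, all genes 0.06). These were PRPH, a peripheral neuron intermediate filament (1.65 ± 0.54), BASP1, a growth-cone protein (1.21 ± 0.27), and MAP1B, a microtubule-associated protein (0.96 ± 0.22). The count of 3 of 21 is near the share of all genes. At day 40 it was again 3 and 0, with PRPH at 2.16 ± 0.60 and BASP1 at 1.28 ± 0.30. Between the GFP- populations 3 of the 21 were higher and 5 lower in GFP-mCherry+ cells at day 25, and 2 higher and 8 lower at day 40, where 16.4% and 18.5% of all genes were lower. BASP1 was lower in GFP-mCherry+ than in GFP-mCherry- cells, by -1.28 ± 0.27 at day 25.

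The NPY family list includes receptors and a peptidase, DPP4, which cleaves NPY. DPP4 was higher in GFP+mCherry+ than in GFP-mCherry+ cells by 2.70 ± 0.58 at day 25 (adjusted p = 0.00530 by limma) and 3.57 ± 0.65 at day 40 (adjusted p = 0.00141 by limma). It was 74.0, 24.7 and 36.2 FPKM at day 25 and 70.4 and 75.4 FPKM at day 40 in GFP+mCherry+ cells. GFP-mCherry+ cells held 1.98, 5.43 and 12.5 FPKM, then 2.96, 14.3 and 3.00 FPKM. GFP-mCherry- cells held 4.90, 13.0 and 12.9 FPKM, then 24.2, 44.0 and 20.5 FPKM. In GFP+mCherry+ minus GFP-mCherry- at day 25, 1 of 4 tested genes of the list was called by limma, as higher, where 11.1% of all genes were called. At day 40, 0 of 4 were called, with 0 at an unadjusted p under 0.05 and 11.8% of all genes called. Of the 7 genes in the list, PPY and PYY stayed under 1 FPKM in every library. In GFP+mCherry+ minus GFP-mCherry+, 1 of 4 tested genes rose and 1 fell at each day.

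The lists that follow hold 3 to 12 tested genes each, so 1 or 2 calls in a list lie near the shares of all genes. Among other neuropeptides, NMU (neuromedin U) was higher in GFP+mCherry+ than in GFP-mCherry+ cells by 1.97 ± 0.57 at day 25 and 2.14 ± 0.64 at day 40, and PENK (proenkephalin) by 1.35 ± 0.44 and 1.59 ± 0.49. In GFP-mCherry- cells both were higher than in GFP-mCherry+ cells, NMU by 2.43 log2 units at day 25. Of 9 tested genes 2 rose and 1 fell at day 25, and 5 rose at day 40. Of 9 granule genes SCG2, a granin, was higher in GFP+mCherry+ cells (1.97 ± 0.46 and 2.13 ± 0.51) and PAM, which amidates peptides, lower (-0.82 ± 0.24 and -1.49 ± 0.27). Among neurotrophins and their receptors, 3 of 12 rose at day 25, among them SORT1, a neurotrophin co-receptor, by 0.51 ± 0.17. At day 40 4 rose, among them the ligands BDNF (1.43 ± 0.33) and NTF4 (1.36 ± 0.32). Of the REST complex, a repressor of neuronal genes, 1 of 9 fell at day 25, RCOR2 (-1.40 ± 0.38), and 0 were called at day 40 by limma, where 3 had an unadjusted p under 0.05. No UCH family hydrolase other than UCHL1 was called (0 of 3, with 0 at an unadjusted p under 0.05). Of 6 other beta tubulins 1 fell at each day, TUBB4B (-0.93 ± 0.31) and then TUBB6 (-1.03 ± 0.32). Called genes of these lists with means under 5 FPKM in both groups, named after their values were seen, were INA (higher at day 40), NPY5R (lower at both days), PDYN (lower at day 25) and ADCYAP1, TAC1 and CALCA (higher at day 40), with BDNF at day 25, GFRA2 at both days and NTF3 at day 40 among the neurotrophin genes (all higher).

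Of 16 neuron markers, 13 stayed under 5 FPKM in every library. DBH, ELAVL4, INSM1, RBFOX3 and TH stayed under 1 FPKM. Only GATA3, SLC6A2 and SNAP25 reached 5 FPKM. Of the 9 that could be tested, 3 were higher in GFP+mCherry+ than in GFP-mCherry+ cells at day 25 and 0 lower, and at day 40 1 was higher and 1 lower. PHOX2A, named after its values were seen, was 1.78 and 2.36 FPKM in GFP+mCherry+ cells at day 40. In every other library it was at most 0.419 FPKM. SLC6A2 went the other way at day 40, with 1.54 and 2.20 FPKM against 3.02, 4.86 and 7.82 FPKM in GFP-mCherry+ cells. Summed over the 16, the range was 26.4 to 33.8 FPKM in GFP+mCherry+ cells at day 25, 18.0 to 19.8 in GFP-mCherry+ and 28.4 to 47.2 in GFP-mCherry- cells. At day 40 it was 17.5 to 27.9, 14.8 to 22.7 and 17.8 to 27.2 FPKM. Much of the sum in GFP-mCherry- cells was GATA3, which epithelia also express. Over the other 15, GATA3 being left out after its values were seen, the order of the populations differed. At day 25 the sums were 17.3 to 21.2 FPKM in GFP+mCherry+, 13.1 to 14.3 in GFP-mCherry+ and 8.53 to 12.3 in GFP-mCherry- cells. At day 40 these sums were 15.6 to 22.6, 13.7 to 21.1 and 10.3 to 15.8 FPKM. Much of the day 25 difference was again 1 gene, SNAP25. It was 6.87, 10.4 and 9.25 FPKM in GFP+mCherry+ and 1.93, 2.89 and 2.47 FPKM in GFP-mCherry- cells. The order does not describe the neuron markers as a set. The 3 called at day 25 were GATA3 (1.04 ± 0.32), SLC18A3 (0.86 ± 0.21, named after its values were seen) and SNAP25. SNAP25, a synaptic membrane fusion protein, was higher in GFP+mCherry+ than in GFP-mCherry+ cells at day 25 (0.82 ± 0.25, adjusted p = 0.0303 by limma). GATA3, like NTRK2, was lower in GFP-mCherry+ than in GFP-mCherry- cells at day 25 (5.08 against 28.8 FPKM, -2.26 ± 0.32, adjusted p = 8.32e-05 by limma). It averaged 11.6 FPKM in GFP+mCherry+ cells.

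**Figure D3:**
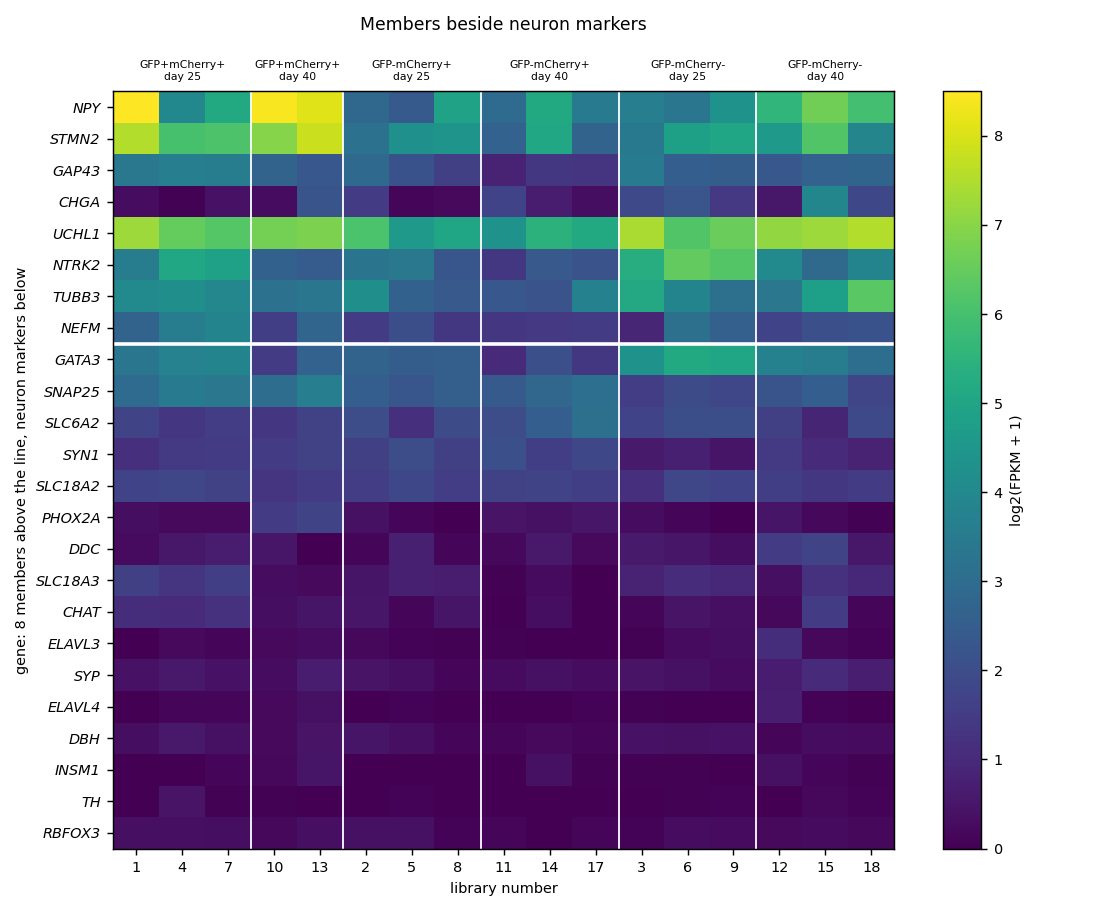
Heat map of log2(FPKM + 1), with libraries by number and group across, the 8 genes above the line and 16 neuron markers below. Most markers stay dark where NPY, STMN2 and UCHL1 are bright: 13 of 16 are under 5 FPKM in every library. GATA3 is an exception, at up to 35.0 FPKM in GFP-mCherry- cells at day 25.

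TFAP2A and TFAP2B, transcription factors used by neural crest and by epithelia, were lower in GFP+mCherry+ than in GFP-mCherry- cells at day 25 (-1.43 ± 0.37 and -2.01 ± 0.32). SOX10 and FOXD3, defining neural crest genes, stayed under 1 FPKM in every library. A sum over 10 crest markers was 104.1 to 166.2 FPKM in GFP-mCherry- and 32.3 to 74.3 FPKM in GFP+mCherry+ cells at day 25, and 67.8 to 86.1 and 24.4 to 51.1 FPKM at day 40.

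The genes whose levels most resembled each member's were found by Pearson's r of log2(FPKM + 1) over the 17 libraries, a description over libraries that share their groups. For NPY these were HPCAL4 (r = 0.98), a neuronal calcium sensor, SFTPD (0.97), a surfactant protein, and SLPI (0.97), a secreted protease inhibitor. SLPI was 768 FPKM in library 1 but 23.6 and 42.5 FPKM in libraries 4 and 7, and 1083 and 1004 FPKM at day 40. STMN2 was nearest to PXK (0.98), ENPP2 (0.97) and FRZB (0.97), a secreted Wnt antagonist. GAP43 was nearest to PIANP (0.95), PKDCC (0.95) and KCNG1 (0.90), UCHL1 to PLS3 (0.97), S100A10 (0.97) and SMOC2 (0.95), and NTRK2 to PDE10A (0.96), TFAP2A (0.96) and SLC35F2 (0.96). NEFM (PRDM6, ZNF765 and C22orf23, each 0.88) and TUBB3 (CYB561D2, 0.94, LAMP1, 0.94, WDR46, 0.93) followed. CHGA had no close companion, with KRT4 at 0.70, STRA6 at 0.68 and THAP1 at 0.67. No 2 members shared a gene among their nearest 3.

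**Figure D4:**
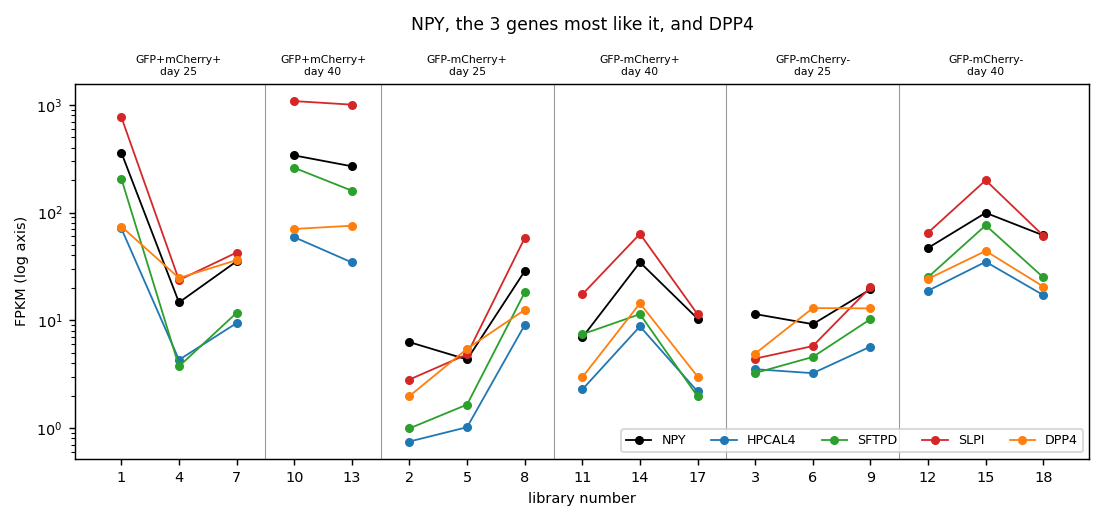
FPKM (log axis) of NPY, its 3 nearest genes and DPP4 in the 17 libraries, ordered by group, with lines joining libraries of a group for reading only. NPY, SLPI, SFTPD and HPCAL4 are high together in libraries 1, 10 and 13, and libraries 4 and 7 are lower in all of them. HPCAL4 is about as high in library 15 of GFP-mCherry- cells (34.9 FPKM) as in library 13 (34.4 FPKM). In library 15 NPY is 99.4 and SFTPD 76.1 FPKM.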

How the data were processed

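RNA from 17 sorted cell samples of the H9 line was sequenced after TruSeq library preparation, per the labels' protocols. The submitters' processing notes list STAR 2.5.2b, Cufflinks 2.1.1, cutadapt, bcl2fastq 2.19 and hg19, with no settings. The authors deposited 1 table of FPKM values; the unit is not in its header and rests on the listed Cufflinks and on the values themselves. Fragment counts were not used here, so there are no counting intervals or detection floors.

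Rows of 1 symbol were summed (20368 rows to 20218 genes). After the filter, log2(FPKM + 1) of 14845 genes was fitted by limma 3.58.1 (R 4.3.3) with 1 mean per group, a trended eBayes and 11 residual degrees of freedom. In each of 10 comparisons p-values were adjusted over all genes by Benjamini-Hochberg, and an adjusted p under 0.05 was called. Errors of differences are limma's standard errors, and those of levels are SDs. The fit was tested on simulated data for GFP+mCherry+ minus GFP-mCherry+ at day 25. It called 48% of 100 genes given a log2 difference of 1 and 91% of 100 given 2, with 8 false calls. Only these genes were changed there. A difference near 1 that did not pass is therefore not shown to be absent.

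Groups follow titles and genotype labels. GFP+mCherry+ libraries carry an extra minus sign in their titles, and the genotype label was used. The members and gene lists were chosen with earlier results of these data known. Some list genes are not reported here. List genes were named, up to 3 a direction, by the size of the difference among those called with at least 5 FPKM in the higher group. For each member the 3 genes of highest Pearson r were named. Alternatives were a pseudocount of 0.1, no filter, a stricter filter at 5 FPKM, other scalings (median of ratios, quantile), a fit of the compared groups alone, libraries 13 and 14 left out, isolated zeros set to missing, each library left out in turn, and, added after seeing the data, a block by sets of consecutive library numbers. Promoters came from RefSeq on GRCh38.p14, whereas the files use hg19, and no coordinate was carried between builds.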

Additional observations from a re-analysis of the deposited data

How the results depend on the processing

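The labels do not say which libraries were prepared together. A fit with a replicate block by sets of consecutive library numbers, chosen after seeing the data, could be made for comparisons within a day and left 7 residual degrees of freedom. It gave 2 members called in GFP+mCherry+ minus GFP-mCherry- at day 25 in place of 1, adding NEFM (adjusted p = 0.0432 by limma), and changed no other call of a tested member. Libraries of a set were alike in part: deviations from the group means correlated above 0.1 in 10 of 16 pairs of a set (r from -0.123 to 0.458). In pairs of different sets within a day r ran from -0.373 to 0.251. Of the 17 libraries, 10 were nearest to one of their own set. Whether the libraries of a set were prepared together is not known. Over all alternatives and refits, 740 of 777 values of tested members kept their direction and their side of the threshold, 29 lost the call, 8 gained one and 0 reversed. Most of the 777 values belong to results without a call in the main fit, which had no call to lose. The share that stayed the same is therefore no measure of how stable the calls were, and all 29 losses fell on the calls of the main fit. The call of 1 member in GFP+mCherry+ minus GFP-mCherry- at day 25 became 0 with a pseudocount of 0.1 and 0 with no filter on low values. The call of 1 member in day 40 minus day 25 of GFP+mCherry+ cells became 0 with no filter, 0 with only the compared groups and 0 without libraries 13 and 14. In GFP-mCherry- cells the count between the days was 2 with only the compared groups, where NPY was added. Other calls gained were CHGA in both comparisons of day 25 with GFP-mCherry- cells with only the compared groups (0.00563 and 0.0402), CHGA and TUBB3 without library 12, and NEFM without library 3 or 6. The cause was not tested.

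With each library left out in turn, the count of members called ranged from 0 to 3 for GFP+mCherry+ minus GFP-mCherry+ at day 25 and from 0 to 1 at day 40. It ranged from 0 to 1 for GFP+mCherry+ minus GFP-mCherry- at day 25 and from 0 to 1 at day 40. For GFP-mCherry+ minus GFP-mCherry- it was 2 to 3 at day 25 and 2 to 4 at day 40. Between the days it was 0 to 1 in GFP+mCherry+ cells, 0 to 0 in GFP-mCherry+ cells and 1 to 1 in GFP-mCherry- cells, and for the change of the difference 0 to 0. Where the refit left 1 library of GFP+mCherry+ cells at day 40, that library is assumed to vary like the other groups.

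Over all genes, quantile normalization moved the share of calls that were higher from 63.6% to 49.9% in GFP+mCherry+ minus GFP-mCherry+ at day 40 and from 13.9% to 26.2% in day 40 minus day 25 of GFP-mCherry+ cells. It moved the median of all genes by up to 0.135 log2 units. Read depth was unknown, so the precision of low values such as those of CHGA could not be given.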
